A study of Mus musculus with 6 samples.

Results

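The 9 genes described here were the Egr, Nr4a and Ier members Egr1, Egr2, Egr3, Nr4a1, Nr4a2, Nr4a3, Ier2, Ier3 and Ier5. They were chosen by gene name from the 54532 genes of the deposited count table. Macrophages were profiled by polyA RNA-sequencing from infarcted mouse hearts, 7 days after the left anterior descending artery was tied off for good in 12-week-old C57BL/6 mice. The ITGA5 fl/fl group (3 libraries) carried the floxed Itga5 alleles without Cre, and the Myα5KO group (3 libraries) carried the same alleles with LyzM-Cre, which deletes in myeloid cells that use the lysozyme M promoter, neutrophils and monocytes included. The controls were littermates, and per the study's methods each suspension came from the heart of an individual mouse. Cells were released with warm enzymatic digestion and selected magnetically, first as Ly6G- and then as CD11b+, a gate that does not separate macrophages from monocytes or other CD11b+ cells.

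Immediate early genes are held ready for transcription and are switched on by signals such as ERK, calcium and cAMP without new protein synthesis, and their transcripts are short-lived. Adhesion through integrins is one of the known inputs to these kinases. Warm enzymatic digestion of tissue is another known inducer of the same genes, so part of their level in sorted cells can arise after the heart is removed. Every library passed through the digestion and none was made from undigested tissue, so the part of each level that was set in the heart and the part gained during dissociation cannot be told apart.

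The question was how the 9 genes differed between Myα5KO and ITGA5 fl/fl macrophages in each library. Egr3 was the most changed, at 1.76-fold in Myα5KO, Nr4a1 rose 1.34-fold and Ier2 rose 1.30-fold, while Ier3 fell to 0.751 of its ITGA5 fl/fl level. Egr1, Egr2, Nr4a2, Nr4a3 and Ier5 did not pass the threshold, an edgeR adjusted p of 0.05 or less over the 14522 genes tested. All 9 genes were expressed above the count filter. Of the 9, 3 were called higher and 1 lower, where 3.56% of all genes tested were called higher and 5.19% lower. All 3 Myα5KO libraries lay above all 3 ITGA5 fl/fl libraries for 4 genes and below them for 1, against 14.9% and 13.8% of all genes tested. The log2 fold change was positive for 8 of the 9, with a median of 0.23, against 0.01 over all genes tested.

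**Figure D1:**
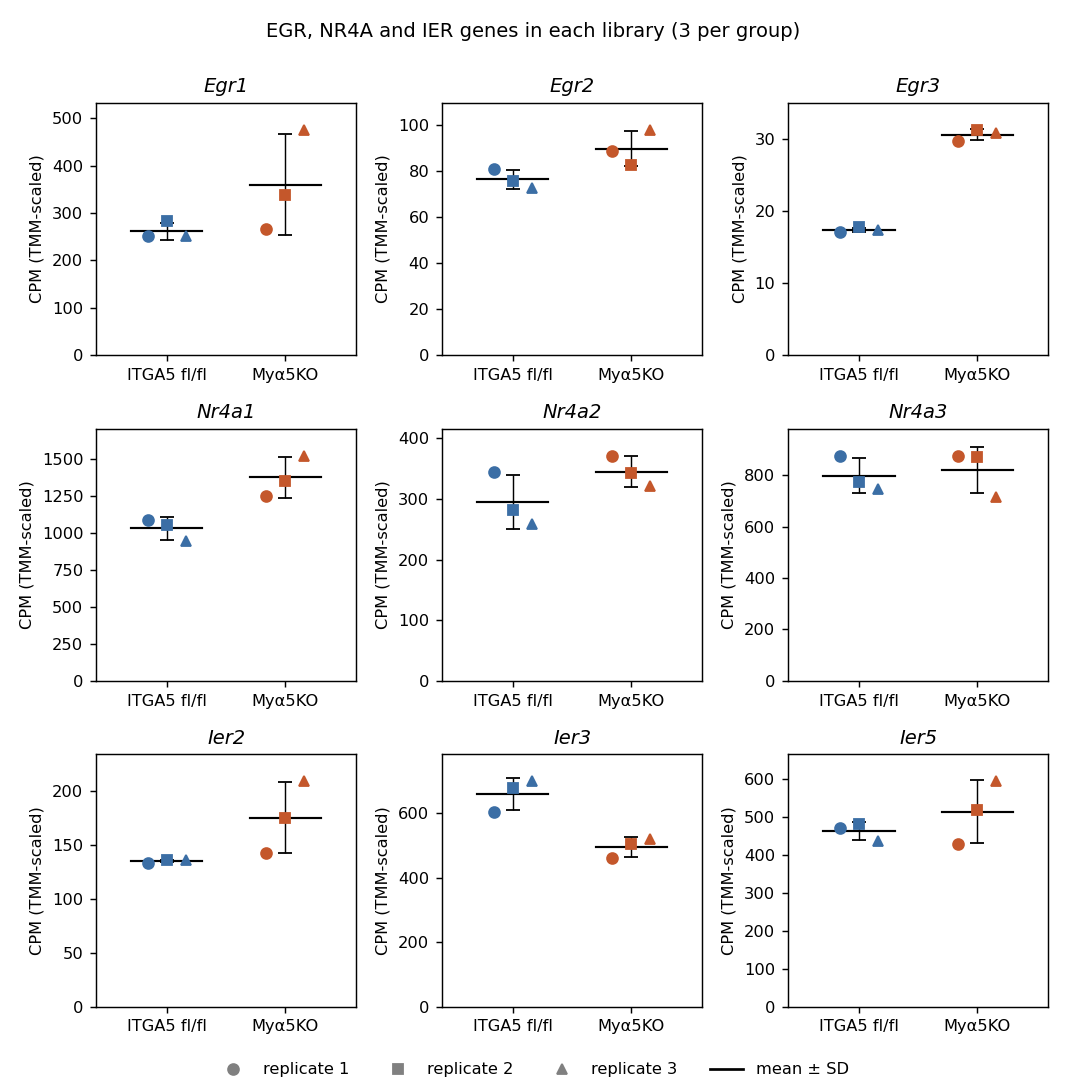
CPM (counts scaled to library depth and by TMM) of the 9 genes on the y axis, with 1 panel per gene, 1 point per library, the group mean as a line and the SD as a bar. Egr3 formed 2 tight and separate groups (17.1 to 17.7 against 29.8 to 31.3 CPM), Ier3 was the gene lower in Myα5KO, and in Egr1, Ier2 and Ier5 replicate 1 was the lowest and replicate 3 the highest Myα5KO library.

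The libraries held 15424451 to 18419287 counts each, so counting error was small beside the differences between libraries for most of these genes. The targeted gene Itga5 was at 607 ± 43.2 CPM (SD, n = 3) in ITGA5 fl/fl against 48.7 ± 1.48 in Myα5KO (log2 fold change -3.64 ± 0.08 (SE), edgeR adjusted p = 4.42e-12), and Lyz2, the locus that carries the Cre, was at 7073 to 7631 and 3588 to 4070 CPM. Myα5KO replicate 3 stood apart: the chi-square of its counts against Myα5KO replicates 1 and 2, per degree of freedom, was 14.8 and 9.93, against 5.61 to 7.72 for the other pairs within a group. The summed CPM of 10 macrophage markers was 17354 to 17567 in ITGA5 fl/fl and 15330 to 16169 in Myα5KO, a difference carried mostly by Cd14 (4755 against 3489 CPM on average). Of the other 9 macrophage markers 8 were not called and Fcgr1 was called higher. That of 10 granulocyte markers was 35.9 to 59.5 and 80.4 to 200.2, of 8 fibroblast markers 1620 to 1899 and 1211 to 1579, of 8 cardiomyocyte markers 19.2 to 22.2 and 13.0 to 16.8, of 6 B-cell markers 75.9 to 115 and 113 to 184, and of 8 T and NK cell markers 5.03 to 5.75 and 7.60 to 8.83. The 8 endothelial markers summed to 307 to 333 CPM in ITGA5 fl/fl and 322 to 372 in Myα5KO. Mitochondrial genes took 0.954 to 1.01% of counts in ITGA5 fl/fl and 1.01 to 1.08% in Myα5KO, with all 3 Myα5KO libraries above those of ITGA5 fl/fl. No marker was at 0 in every library, though the granulocyte-defining Ly6g and Cxcr2 were under the count filter. With 3 against 3 libraries the exact permutation test of such a sum cannot go below p = 0.1. In bulk samples fewer cells of a type and less RNA per cell cannot be told apart, and the part of these other cells, and of the mitochondrial share, in the results on the 9 genes was not tested.

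Compared per length as FPKM (counts scaled to gene length and by a constant of each library), the 9 genes covered a wide range. In ITGA5 fl/fl libraries Ier3 was the highest at 580 ± 43.7 FPKM (SD, n = 3), and it ranked 70 among the 14522 genes tested over all 6 libraries. Nr4a1 followed at 292 ± 21.3, Ier5 at 141 ± 6.68, Nr4a3 at 133 ± 11.7, Ier2 at 88.5 ± 0.749, Nr4a2 at 72.3 ± 10.9, Egr1 at 58.0 ± 3.93, Egr2 at 22.4 ± 1.22 and Egr3 at 3.93 ± 0.061. In this order Ier5 and Nr4a3 overlapped between libraries, and every other pair of neighbours was separated. In Myα5KO the order of the means was the same, but more neighbours overlapped. The ranges of Ier3 (434 ± 25.2) and Nr4a1 (389 ± 35.5) overlapped at the top, though within each Myα5KO library Ier3 was the higher. Ier5 (155 ± 24.0), Nr4a3 (136 ± 16.1) and Ier2 (114 ± 20.7) overlapped as a second step. Nr4a2 (84.3 ± 6.78) overlapped Egr1 (79.5 ± 22.9), with Egr2 (26.2 ± 2.04) and Egr3 (6.90 ± 0.166) below them. Egr3 had the lowest level of the 9, at rank 6042.

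In their structure most of these genes are compact, a feature the choice by name did not use. Ier2 and Ier5 consist of 1 exon each, and Egr1, Egr2, Egr3 and Ier3 of 2, whereas Nr4a1, Nr4a2 and Nr4a3 have 8 each (GENCODE M21, the coding transcript with the longest coding sequence). The median over 12702 genes tested was 9 exons. From first to last exon Ier3 spans 1240 bases, Ier2 1522 and Ier5 3276, and the EGR genes 4320 to 5237, against a median of 22284. The NR4A genes span 8209 (Nr4a2), 20527 (Nr4a1) and 37334 bases (Nr4a3). None of the 9 overlaps another annotated gene in the deposited table.

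EGR proteins are zinc-finger transcription factors that bind GC-rich sites. Egr1 (ENSMUSG00000038418) is induced through serum response factor and ELK proteins in most cell types, Egr2 is linked to macrophage differentiation and alternative activation, and Egr3 is a calcium-responsive and NFAT-responsive relative. Egr3 (ENSMUSG00000033730, chr14:70077203-70082614, plus strand, GRCm38) was at 17.1, 17.7 and 17.4 CPM in ITGA5 fl/fl replicates 1 to 3 and at 29.8, 31.3 and 30.8 CPM in Myα5KO replicates 1 to 3. The groups were far apart and each was narrow. The log2 fold change was 0.82 ± 0.08 (SE; 95% interval 0.64 to 0.99; edgeR adjusted p = 0.000109). Egr3 rested on 255 to 586 counts per library, and the spread between replicates (CV 1.87% in ITGA5 fl/fl and 2.48% in Myα5KO) was no larger than the counting error of its lowest library, 6.26%. Without Myα5KO replicate 3 the log2 fold change was 0.81 (edgeR adjusted p = 0.000306).

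Egr1 was at 251, 283 and 250 CPM in ITGA5 fl/fl replicates 1 to 3 and at 265, 339 and 475 CPM in Myα5KO replicates 1 to 3. Myα5KO replicate 1 lay inside the ITGA5 fl/fl range and replicate 3 far above it, so the groups overlapped. On the log2 scale the difference was 0.46 ± 0.15 (SE; 95% interval 0.14 to 0.79; edgeR adjusted p = 0.0764). The Myα5KO libraries varied more than those of ITGA5 fl/fl, with CVs of 29.6% and 7.12%, against a counting error of at most 1.64%. The value depended on which Myα5KO library was left out: without replicate 1 it was 0.63 (edgeR adjusted p = 0.00394) and without replicate 3 it was 0.21 (edgeR adjusted p = 0.216).

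Egr2 (ENSMUSG00000037868, chr10:67535475-67542188, plus strand) was at 80.8, 75.5 and 72.8 CPM in ITGA5 fl/fl and at 88.6, 82.6 and 97.9 CPM in Myα5KO. The groups did not overlap, but the gap between them, from 80.8 to 82.6 CPM, was narrow. The log2 fold change of 0.23 ± 0.07 (SE; 95% interval 0.07 to 0.39) did not pass the threshold (edgeR adjusted p = 0.0734). Egr4, the remaining gene of the family, was under the count filter, at 0 to 0.473 CPM. Within libraries, the ratio of Egr3 to Egr2 in FPKM was 0.163, 0.181 and 0.184 in ITGA5 fl/fl replicates 1 to 3 against 0.260, 0.292 and 0.243 in Myα5KO, so the pair shifted relative to each other whatever the scaling of the libraries. The ratio of Egr1 to Egr2 overlapped between groups (2.35 to 2.84 against 2.27 to 3.68), and so did that of Egr3 to Egr1 (0.0638 to 0.0705 against 0.0660 to 0.114).

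A promoter window of Egr2 is shown as an example of 2 kinds of element through which immediate early genes are classically induced, the CArG box bound by serum response factor and half-sites of the cAMP response element (TGACG). It gives the 250 bases before a RefSeq start site (GRCm38.p6), on the gene's strand, with motif matches in capitals. The table listed 5 start sites for Egr2, and the 1 shown, which lies inside the annotated span of the gene, was chosen with the sequences in view. The window before the first of the 5 start sites (chr10:67535249-67535498) holds 0 of the motifs searched, and the next (chr10:67537316-67537565) holds a CArG box and no half-site.
Egr2 chr10:67537619-67537868 (+): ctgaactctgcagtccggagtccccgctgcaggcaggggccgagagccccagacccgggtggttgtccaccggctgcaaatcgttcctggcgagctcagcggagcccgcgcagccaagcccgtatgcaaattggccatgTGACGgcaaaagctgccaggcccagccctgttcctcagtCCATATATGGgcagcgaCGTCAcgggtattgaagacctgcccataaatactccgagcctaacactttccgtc
In this window the CArG box begins 72 bases before the start, and half-sites begin 111 and 55 bases before it. A CArG box was found on either strand in 1.47% and at least 1 TGACG in 17.8% of 32851 promoter windows of the same length. Egr1, Egr3 and Ier2 were not matched in this table.

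NR4A proteins are orphan nuclear receptors that act without a known physiological ligand. Nr4a1 supports the survival of patrolling monocytes and restrains inflammatory gene expression in macrophages, Nr4a2 can repress NF-kappaB targets, and Nr4a3 is a close relative induced by many of the same signals. Nr4a1 (ENSMUSG00000023034, chr15:101254269-101274795, plus strand) was at 1091, 1056 and 945 CPM in ITGA5 fl/fl replicates 1 to 3 and at 1252, 1353 and 1523 CPM in Myα5KO replicates 1 to 3. Every Myα5KO library was above every ITGA5 fl/fl library. The difference on the log2 scale was 0.42 ± 0.09 (SE, 95% interval 0.23 to 0.60, edgeR adjusted p = 0.00972). Leaving out ITGA5 fl/fl replicate 3, its lowest library, gave 0.36 (edgeR adjusted p = 0.0606), and without Myα5KO replicate 3, its highest, it was 0.34 (edgeR adjusted p = 0.0172).

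Nr4a2 (ENSMUSG00000026826, chr2:57106830-57124003, minus strand) was at 344, 281 and 259 CPM in ITGA5 fl/fl and at 371, 343 and 321 CPM in Myα5KO. ITGA5 fl/fl replicate 1 lay inside the Myα5KO range. The fitted difference was 0.23 ± 0.10 on the log2 scale (SE; 95% interval 0.02 to 0.43; edgeR adjusted p = 0.172). Nr4a2 was called in 1 of the 6 fits that dropped 1 library, at 0.35 (edgeR adjusted p = 0.0282). The library dropped in that fit was ITGA5 fl/fl replicate 1. All the remaining fits of this kind left Nr4a2 uncalled, with differences of 0.14 to 0.28 (edgeR adjusted p = 0.115 to 0.485).

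Nr4a3 (ENSMUSG00000028341, chr4:48045153-48086447, plus strand) was at 876, 773 and 745 CPM in ITGA5 fl/fl and at 874, 870 and 716 CPM in Myα5KO. The ranges overlapped almost fully, and the lowest of the 6 libraries was Myα5KO replicate 3, in which Egr1, Nr4a1, Ier2 and Ier5 were at their highest. The log2 fold change was 0.04 ± 0.09 (SE; edgeR adjusted p = 0.838), with a 95% interval of -0.16 to 0.23, and it was slightly negative without ITGA5 fl/fl replicate 3 (-0.0087), Myα5KO replicate 1 (-0.013) or Myα5KO replicate 2 (-0.0081). Within libraries, the FPKM ratio of Nr4a1 to Nr4a3 was 2.12, 2.33 and 2.17 in ITGA5 fl/fl against 2.44, 2.65 and 3.63 in Myα5KO. The ratio of Nr4a2 to Nr4a3 was 0.579, 0.536 and 0.513 against 0.626, 0.581 and 0.661. Both ratios were separated between groups, the second narrowly, while that of Nr4a1 to Nr4a2 overlapped (3.67 to 4.35 against 3.90 to 5.49).

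The NR4A promoters are shown because the 3 genes carry the same number of TGACG half-sites. Any part of these sites in the differences between the groups was not tested. Each line gives the bases before the RefSeq start site (GRCm38.p6) on the gene's strand, with TGACG, or CGTCA on the other strand, and the EGR site GCGNGGGCG in capitals. For Nr4a3 the line stops where an annotated exon begins.
Nr4a1 chr15:101266596-101266845 (+): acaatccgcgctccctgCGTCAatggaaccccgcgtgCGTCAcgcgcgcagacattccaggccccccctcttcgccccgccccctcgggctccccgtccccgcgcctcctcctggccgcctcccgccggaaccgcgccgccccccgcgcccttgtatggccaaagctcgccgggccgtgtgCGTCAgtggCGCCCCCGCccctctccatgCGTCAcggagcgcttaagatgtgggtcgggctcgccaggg
Nr4a2 chr2:57124004-57124253 (-): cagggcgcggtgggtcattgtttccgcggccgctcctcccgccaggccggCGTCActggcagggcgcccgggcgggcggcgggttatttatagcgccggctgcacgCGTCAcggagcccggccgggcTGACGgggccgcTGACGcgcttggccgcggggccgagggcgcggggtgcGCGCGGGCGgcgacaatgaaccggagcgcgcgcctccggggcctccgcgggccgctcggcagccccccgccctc
Nr4a3 chr4:48045055-48045152 (+): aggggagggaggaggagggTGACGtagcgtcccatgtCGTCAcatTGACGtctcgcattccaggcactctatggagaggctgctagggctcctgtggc
Each of the 3 windows of 250 bases holds 4 TGACG half-sites, and 4 or more were found in 45 of the 32851 windows (0.137%). In Nr4a1 they begin 233, 213, 69 and 40 bases before the start, in Nr4a2 200, 144, 123 and 111, and in Nr4a3 231, 213, 205 and 147, the last of these lying past the end of the line shown. Nr4a1 and Nr4a2 each also hold 1 EGR site, beginning 60 and 74 bases before the start, which was found in 4.7% of windows, and Nr4a3 holds none. The start of the Nr4a1 window is internal to its annotated span. None of the 3 windows holds a CArG box or the full palindrome TGACGTCA (1.55% of windows). These motifs were chosen with the sequences in view, and a match in a window is a description of its letters.

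The IER genes encode small proteins and share a name for how they were found. Ier2 is a nuclear protein linked to cell motility, Ier5 promotes activation of the heat shock factor HSF1, and Ier3 is an NF-kappaB target that modulates apoptosis and ERK signalling. Ier3 (ENSMUSG00000003541, chr17:35821684-35822923, plus strand) was at 603, 677 and 699 CPM in ITGA5 fl/fl replicates 1 to 3 and at 460, 505 and 521 CPM in Myα5KO replicates 1 to 3. It was the 1 gene of the 9 whose Myα5KO libraries all lay below those of ITGA5 fl/fl. Its log2 fold change was -0.41 ± 0.08 (SE; 95% interval -0.58 to -0.25; edgeR adjusted p = 0.00584). It still passed the threshold when any 1 of the 6 libraries was dropped, at -0.47 to -0.37.

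The Ier3 promoter is shown because this gene was the 1 called lower. Its window holds a match to the NF-kappaB site GGAATTTCC, in capitals. The line runs from 250 bases before the RefSeq start (GRCm38.p6) to the first annotated exon.
Ier3 chr17:35821463-35821683 (+): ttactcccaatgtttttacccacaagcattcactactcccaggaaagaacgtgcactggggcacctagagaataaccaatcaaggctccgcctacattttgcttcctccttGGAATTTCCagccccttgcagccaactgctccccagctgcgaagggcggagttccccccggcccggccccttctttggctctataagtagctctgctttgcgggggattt
The match begins 139 bases before the start, and the same letters were found in 0.286% of windows. This motif too was chosen with the sequences in view, so that share does not measure how unusual the match is. Any part of the site in the lower level of Ier3 was not tested. The window holds neither a TGACG half-site nor a CArG box. That of Ier5, which is not printed, holds none of the 6 motifs searched, the NR4A monomer site AAAGGTCA (1.34% of windows) included.

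Ier2 (ENSMUSG00000053560, chr8:84661331-84662852, minus strand) was at 134, 136 and 136 CPM in ITGA5 fl/fl and at 143, 175 and 209 CPM in Myα5KO. The ITGA5 fl/fl libraries were nearly equal, with a CV of 0.937%, while those of Myα5KO spread over a CV of 18.9%. The counting error of its lowest library was 2.24%, so the ITGA5 fl/fl values lay closer together than counting alone would give. Ier2 rose by 0.38 ± 0.11 on the log2 scale (SE; 95% interval 0.15 to 0.60; edgeR adjusted p = 0.0404). This call was close to the threshold. It was lost without ITGA5 fl/fl replicate 1, 2 or 3 (edgeR adjusted p = 0.0954, 0.113 and 0.118), without Myα5KO replicate 2 (edgeR adjusted p = 0.0903), and without Myα5KO replicate 3, where the log2 fold change was 0.23 (edgeR adjusted p = 0.0998).

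Ier5 (ENSMUSG00000056708, chr1:155096361-155099636, minus strand) was at 471, 482 and 438 CPM in ITGA5 fl/fl and at 428, 519 and 594 CPM in Myα5KO. Myα5KO replicate 1 was the lowest and replicate 3 the highest of all 6 libraries. For Ier5 the log2 fold change was 0.15 ± 0.10 (SE; 95% interval -0.07 to 0.36; edgeR adjusted p = 0.407). Its relative Ier5l, at 15.1 to 21.0 CPM, differed by 0.28 ± 0.11 on the log2 scale (SE, edgeR adjusted p = 0.135).

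**Figure D2:**
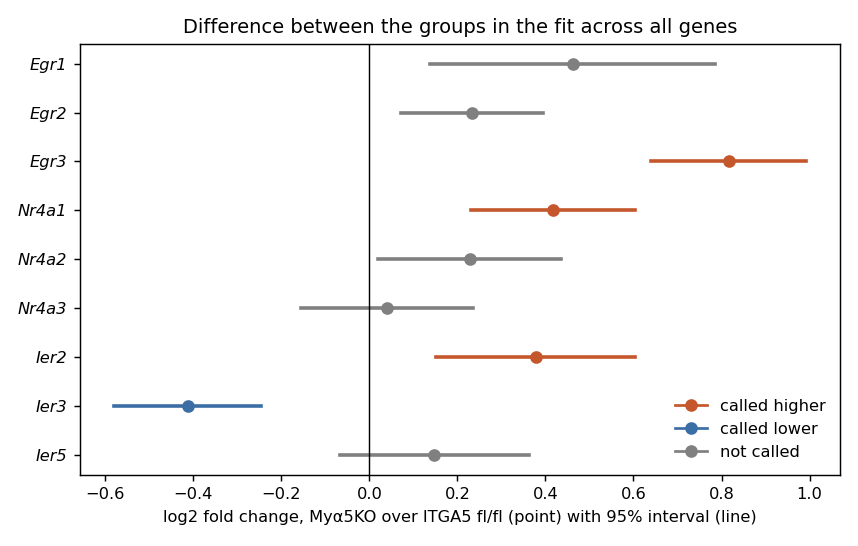
Log2 fold change of Myα5KO over ITGA5 fl/fl on the x axis for each of the 9 genes (points) with the 95% interval of the edgeR fit (lines). Egr3 at 0.82, Nr4a1 at 0.42 and Ier2 at 0.38 were called higher and Ier3 at -0.41 was called lower, while the intervals of Nr4a3 and Ier5 span 0.

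Because Ier3 fell where Egr3, Nr4a1 and Ier2 rose, ratios of genes within a library were also compared, which need no scaling between libraries. The FPKM ratio of Nr4a1 to Ier3 was 0.583, 0.503 and 0.436 in ITGA5 fl/fl replicates 1 to 3 and 0.877, 0.864 and 0.942 in Myα5KO. That of Ier2 to Ier3 was 0.165, 0.149 and 0.145 against 0.231, 0.258 and 0.298, and that of Ier5 to Ier3 was 0.270, 0.246 and 0.217 against 0.321, 0.355 and 0.394. In all 3 ratios the Myα5KO libraries were above every ITGA5 fl/fl library. For Nr4a1 and Ier2 this had to follow, since each was separated upward and Ier3 downward, so these ratios add no separate evidence. Ier5 itself overlapped between the groups, and its ratio shares the lower Ier3 as denominator. The ratios were chosen after the values had been seen, so they carry no test.

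**Figure D3:**
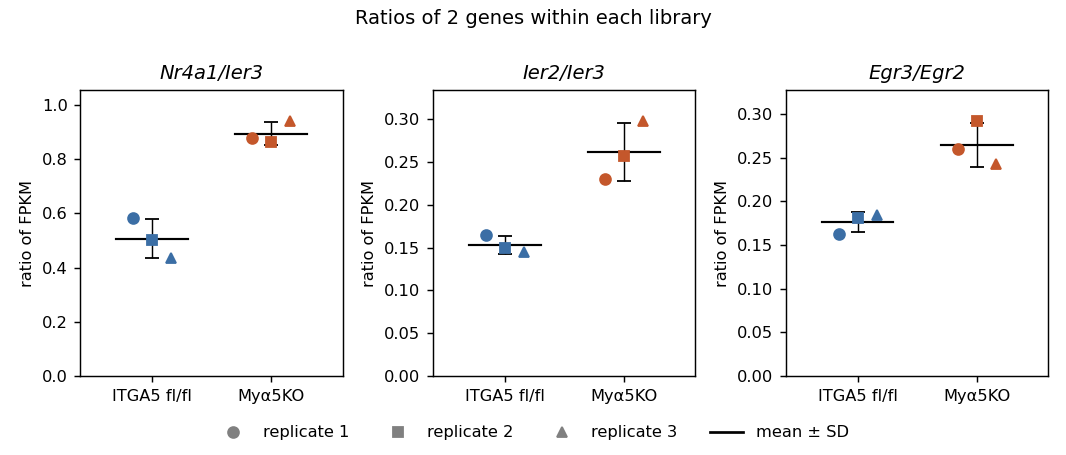
Ratio of the FPKM of 2 genes within each library on the y axis, for Nr4a1 to Ier3, Ier2 to Ier3 and Egr3 to Egr2, with 1 point per library, the group mean as a line and the SD as a bar. The groups are separated in all 3 panels, for example 0.436 to 0.583 against 0.864 to 0.942 for Nr4a1 to Ier3. For the ratios to Ier3 this follows from the separation of each gene alone.

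When libraries were compared by their totals alone, without TMM, the median log2 fold change of all genes tested moved to 0.10, and 1212 genes were called higher and 518 lower, against 517 and 754 with TMM. On that scale 5 of the 9 were called higher, Egr1 (0.54) and Egr2 (0.31) besides Egr3, Nr4a1 and Ier2, and Ier3 was still lower (-0.33).

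The spread inside the Myα5KO group followed an order shared by several of these genes. Replicate 3 was the highest and replicate 1 the lowest Myα5KO library for Egr1, Nr4a1, Ier2, Ier3 and Ier5, 5 of the 9, against 22.6% of all genes tested. The opposite order held for Nr4a2 and Nr4a3, 2 of the 9, against 21% of all genes tested. The log2 CPM of replicate 3 minus that of replicate 1 was 0.84 for Egr1, a difference met or passed by 2.22% of all genes tested, 0.55 for Ier2 and 0.47 for Ier5. It was 0.28 for Nr4a1, 0.18 for Ier3, 0.14 for Egr2 and 0.05 for Egr3, and -0.21 for Nr4a2 and -0.29 for Nr4a3. Egr3, the most changed gene between the groups, thus differed little within Myα5KO, whereas Egr1 differed within Myα5KO by more than between the group means. This order was also chosen for description after the values had been seen.

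Other short-lived and stress-responsive genes followed the same order of libraries. Replicate 3 was highest and replicate 1 lowest among the Myα5KO libraries for 22 of 33 other immediate early genes tested. The same order held for 10 of 12 AP-1 genes, 11 of 14 heat shock genes and 7 of 13 dual-specificity phosphatase and Sprouty genes. It held for 3 of 20 upstream regulators of the early genes, and for 22.6% of all genes tested. The median difference between replicates 3 and 1 was 0.24 for the other immediate early genes, 0.42 for the AP-1 genes and 0.44 for the heat shock genes, on the log2 CPM scale, against 0.01 for all genes tested and -0.06 for 10 macrophage markers. Among the Myα5KO libraries the 8 endothelial markers were all highest in replicate 3, against 38.2% of all genes tested. The 6 B-cell markers were all highest in replicate 1, against 33.5% of all genes tested. The part of dissociation, of RNA handling or of other cells in this spread was not tested.

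**Figure D4:**
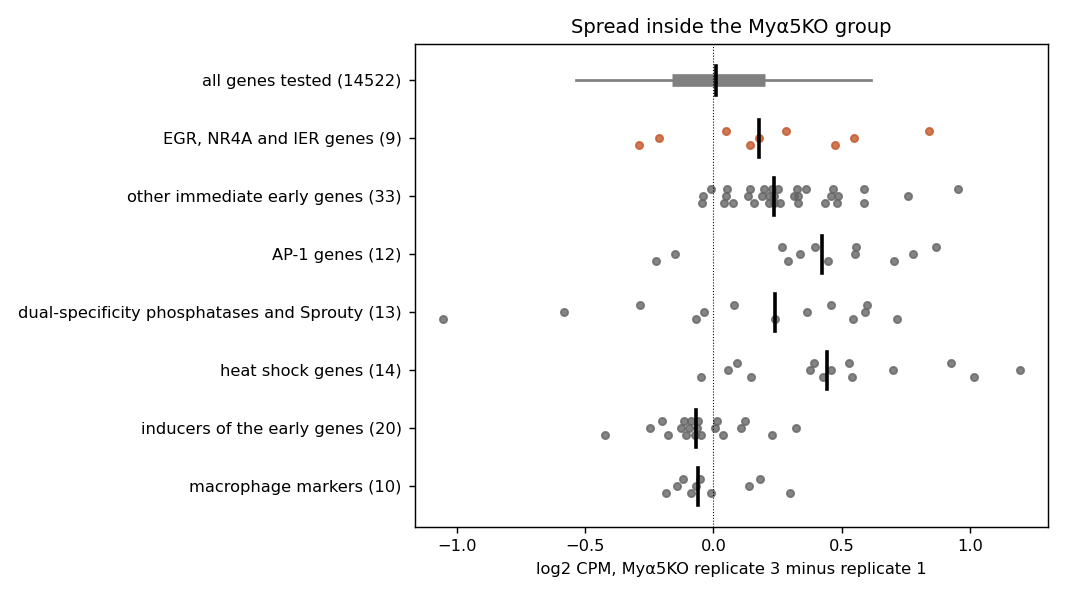
Difference in log2 CPM between Myα5KO replicates 3 and 1 on the x axis, with 1 point per gene, the median of each list as a black bar, and for all 14522 genes tested the range from the 5th to the 95th percentile (thin line) and that from the 25th to the 75th (thick line). AP-1 and heat shock genes lie mostly to the right, with medians of 0.42 and 0.44, the 9 genes spread from -0.29 to 0.84, and upstream regulators and macrophage markers lie around 0.

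The other genes of the response did not move one way. Among 33 other immediate early genes tested, 3 were called higher and 7 lower, with a median log2 fold change of -0.09. Over all genes tested 3.56% were called higher and 5.19% lower, and the counts of this list and of those below are to be read beside these shares. Btg2, an antiproliferative gene, rose by 0.65 ± 0.12 (SE; edgeR adjusted p = 0.00495), from 236 to 281 CPM in ITGA5 fl/fl to 333 to 500 in Myα5KO, and the transcription factor Klf4 rose by 0.39 ± 0.10 (edgeR adjusted p = 0.0333). Bhlhe40, a repressor of the basic helix-loop-helix class, was lower at -0.43 ± 0.06 (edgeR adjusted p = 0.00143), and Id2, an inhibitor of that class, at -0.42 ± 0.08 (edgeR adjusted p = 0.00818). The balance of this list turned with 1 library and with the scaling: 8 were called higher and 2 lower without Myα5KO replicate 1, and 7 higher and 2 lower with library totals only. It was 1 higher and 4 lower without ITGA5 fl/fl replicate 2, 1 and 2 without ITGA5 fl/fl replicate 3, 1 and 5 without Myα5KO replicate 2, and 1 and 7 without Myα5KO replicate 3. Btg2, Bhlhe40 and Id2 were called in all 6 fits that dropped 1 library, and Klf4 in the 2 that dropped ITGA5 fl/fl replicate 1 or Myα5KO replicate 1.

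AP-1 factors are dimers of FOS, JUN and ATF proteins induced beside the EGR and NR4A genes. Of 12 AP-1 genes 3 were called higher and 2 lower, against 3.56% and 5.19% of all genes tested, with a median log2 fold change of 0.16. Fos was at 957 to 1088 CPM in ITGA5 fl/fl and at 1243, 1488 and 1824 CPM in Myα5KO (0.55 ± 0.11 (SE), edgeR adjusted p = 0.00987). Atf3 rose by 0.59 ± 0.14 (edgeR adjusted p = 0.0213). Fosl1 was lower at -1.12 ± 0.16 (edgeR adjusted p = 0.000862), and Maff, a small MAF protein, at -0.44 ± 0.08 (edgeR adjusted p = 0.00362). When ITGA5 fl/fl replicate 3 was left out the list held 0 called higher and 2 lower in edgeR, with Fos at 0.49 (edgeR adjusted p = 0.0593) and Atf3 at 0.49 (edgeR adjusted p = 0.104).

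Dual-specificity phosphatases and Sprouty proteins are induced by MAP kinases and damp them. Of 13 tested, 1 was called higher and 2 lower, against 3.56% and 5.19% of all genes tested. Dusp1 was higher at 0.27 ± 0.08 (SE; edgeR adjusted p = 0.0467), and Dusp4 (-0.39 ± 0.09, edgeR adjusted p = 0.0194) and Spred2 (-0.52 ± 0.12, edgeR adjusted p = 0.0189) were lower. These calls were few, and that of Dusp1 was the closest to the threshold. Dusp4 was called in 11 of 18 alternatives and Spred2 in 12. Dusp1 was called in 5 of 18 alternatives, and of the fits that dropped 1 library only in that without Myα5KO replicate 1. It missed the threshold without ITGA5 fl/fl replicate 1, 2 or 3 (edgeR adjusted p = 0.0804, 0.142 and 0.180) and without Myα5KO replicate 2 or 3 (edgeR adjusted p = 0.141 and 0.0820). Dusp4 was lost without ITGA5 fl/fl replicate 1 or 2 or Myα5KO replicate 2, and Spred2 without ITGA5 fl/fl replicate 1 or 3. Called genes of the list numbered 0 without ITGA5 fl/fl replicate 1, 1 without ITGA5 fl/fl replicate 2 or 3, and 5 without Myα5KO replicate 1.

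Of 20 upstream regulators of the early genes, the SRF, MRTF, ELK, CREB, CRTC, MEF2 and MAP kinase genes, 2 were called higher and 2 lower. The shares over all genes tested were 3.56% and 5.19%. Mrtfa, a coactivator of serum response factor, was lower at -0.33 ± 0.07 (SE; edgeR adjusted p = 0.0139), as was Crem, a cAMP-responsive regulator, at -0.38 ± 0.06 (edgeR adjusted p = 0.00287). Mef2c (0.21 ± 0.06, edgeR adjusted p = 0.0491) and the kinase gene Rps6ka1 (0.37 ± 0.06, edgeR adjusted p = 0.00287) were higher. Mef2c was called in 2 of 18 alternatives, and of the fits that dropped 1 library only in that without Myα5KO replicate 3 (edgeR adjusted p = 0.0973 to 0.195 in the other 5), whereas Rps6ka1 was called in 16 and Crem in 16. Without ITGA5 fl/fl replicate 1 Mrtfa was lost as well (edgeR adjusted p = 0.0533), and called genes of the list numbered 2 in place of 4. Of the partners and repressors of EGR and NR4A proteins, among them Nab1, Nab2 and Rxra, 7 were tested and 0 were called by edgeR, DESeq2 or limma-voom, with 1 lower at an unadjusted edgeR p under 0.05.

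Heat shock genes, which tissue handling also induces, had 0 called higher and 1 lower of 14 tested in edgeR, DESeq2 and limma-voom, with a median log2 fold change of 0.18. At an unadjusted edgeR p under 0.05 there were 5 higher and 2 lower. The 1 called gene was Hspa5, a chaperone of the endoplasmic reticulum (-0.63 ± 0.09 (SE), edgeR adjusted p = 0.00141). Without Myα5KO replicate 1, the library with the lowest sum of this list, 7 were called higher and 1 lower. The summed CPM of the 14 genes was 9555, 10318 and 9671 in ITGA5 fl/fl against 8449, 10301 and 10487 in Myα5KO, so the groups overlapped. This sum includes Hspa5, which averaged 3005 CPM in ITGA5 fl/fl and 1944 in Myα5KO. The log2 fold change was positive for 9 of the 14. Among these were Hspa1a (0.59 ± 0.20, edgeR adjusted p = 0.0827) and Hspa1b (0.45 ± 0.19, edgeR adjusted p = 0.177), neither of them called.

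Among 9350 other genes with a mean of at least 100 counts, those whose log2 CPM over the 6 libraries was most like the mean of the 9 were Btg2 (Pearson r = 0.998), Fos (0.998), Usp19 (0.995), Dusp1 (0.995) and Mb21d1 (0.994). The libraries form 2 groups and share their depth, so these values describe likeness only. Of these 5 genes, Usp19, a ubiquitin-specific protease, differed little in size, at 139 to 141 CPM in ITGA5 fl/fl against 145 to 151 in Myα5KO (log2 fold change 0.08, edgeR adjusted p = 0.481). Mb21d1, which encodes the cytosolic DNA sensor cGAS, was at 13.8 to 14.8 and 16.9 to 20.3 CPM (0.38, edgeR adjusted p = 0.0339), a call that was kept in 1 of the 6 fits that dropped 1 library, that without Myα5KO replicate 1.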

How the data were processed

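RNA of Ly6G- CD11b+ cells was sequenced as paired-end polyA libraries. Per the study's methods and the submitters' processing notes, the authors aligned filtered reads to mm10 (GRCm38.p6) with TopHat2 2.0.9, ran Cufflinks 2.1.1 and counted reads per gene with HTSeq 0.6.1. The deposited counts per gene were used as such. The authors also deposited FPKM values, which divide the counts by gene length and a library constant. Strand settings were not given in the sources used here.

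Genes were kept with edgeR's filterByExpr (minimum count 10, minimum total 15), scaled by TMM and tested with edgeR 4.0.16 (R 4.3.3), by quasi-likelihood, with Benjamini-Hochberg adjustment over 14522 genes and a threshold of 0.05. Errors of fold changes are standard errors and intervals are 95%. Counting errors cover counting only. Replicates are mice, per the study's methods. DESeq2 1.42.0, limma-voom, limma 3.58.1 on log2(FPKM + 1) or (FPKM + 0.1), other scalings and filters, a replicate block, a 1.5-fold minimum and fits without each library were alternatives. On simulated counts for this comparison (14306 genes) edgeR called 90.4% of 125 genes changed at least 2-fold and 76.4% of 72 changed less, with 14 false among 182 calls. Every changed gene in the simulation had a larger absolute log2 fold change than Egr2, Nr4a2, Nr4a3, Ier5 and Ier2. These shares therefore do not cover changes as small as those of these genes, and the share called at such sizes was not tested. Replicate numbers did not pair the libraries.

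The 9 genes, the lists and the motifs were chosen with earlier results of these data known. Other genes named were Itga5, Lyz2, Egr4, Ier5l, at most 4 called genes of each list with the largest change and a mean of at least 100 counts, and the 5 most alike. Promoter sequences are from RefSeq (GRCm38.p6), which matched 6 of the 9.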

Additional observations from a re-analysis of the deposited data

How the results depend on the processing

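Egr3 was called higher in 17 of 18 alternatives and Ier3 lower in 16, Nr4a1 higher in 13 and Ier2 in 8. The test against 1.5-fold in edgeR called 0 of the 9 higher and 0 lower (15 genes in all), with Egr3 the 1 gene of the 9 at an unadjusted p under 0.05. The 9 genes had 1 call higher in each FPKM fit, at log2(FPKM + 1) with and without the filter and at log2(FPKM + 0.1), 5 with library totals only, 6 without the count filter, and 1 to 4 when 1 library was left out, with 1 lower each time. The unfiltered FPKM fit called 0 lower. In the edgeR fit without the count filter the variance of each gene was drawn fully to the trend shared by all genes. Its median prior degrees of freedom were infinite, against 9.50 in the main fit, so its calls do not reflect the spread of single genes between replicates. Over all genes the calls, 1271, were 472 and 448 with log2(FPKM + 1) and (FPKM + 0.1), 10 without the FPKM filter and 616 to 1091 with 1 library left out.

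Across lists, the 2 filtered FPKM fits called 2 and 1 of the other immediate early genes, 2 and 2 AP-1 genes, 0 and 0 phosphatase and Sprouty genes, and 2 and 2 upstream regulators. The unfiltered FPKM fit and the 1.5-fold test called 0 in each list. Without the count filter 6 phosphatase and Sprouty genes and 7 heat shock genes were called. DESeq2 called 5 phosphatase and Sprouty genes, and library totals gave 2 heat shock genes. With 1 library left out the counts ran from 3 to 10, 2 to 7, 0 to 5, 2 to 5 and, for heat shock genes, 1 to 8. Nr4a3 ran from -0.013 to 0.13 in these fits and changed sign in 3. The causes were not tested.

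The numbers did not pair the libraries: the correlations of same-numbered deviations were 0.051, -0.058 and 0.043. A replicate block called 1181 genes, left the 9 at 3 higher and 1 lower, and gave 2 heat shock genes.

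Counts limit Egr3 most, at 255 in its lowest library. The groups hold 3 libraries each, and no undigested or uninfarcted library was used here.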
